A study of Homo sapiens with 32 samples.

Results

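The MAF transcription factors measured here were 4 genes, MAF, MAFF, MAFG and MAFK, found in the deposited count table of 17788 genes by the Ensembl identifiers that GENCODE gives for these symbols. All 4 were present in the table and all 4 passed the filter on low counts. The data were RNA-seq libraries of MCF10A, an immortalized human mammary epithelial cell line used as a model of epithelial-mesenchymal transition (EMT). The 8 groups were cells with the genotype JUNB WT (clones 27 and 2) and cells labelled JUNB knock-out (clones 1 and 65, called mut below), each given solvent or TGFβ1 at 5 ng/ml for 6, 24 or 72 h, with 4 libraries per group and 32 in all. Every line is derived from a single cell, so each genotype rests on 2 clones with 2 replications each, and the libraries of 1 clone and 1 replication are called a series and written as clone and replication, such as 27-1. The labels place the solvent libraries at time 0, while the methods of the study give solvent for the full length of the experiment, with all plates harvested together. JUNB was targeted with an extended deletion after which a shorter polypeptide was still made, so JUNB counts cannot verify the genotype: JUNB was at 97.6 ± 12.9 CPM in WT solvent and 112 ± 47.9 CPM in mut solvent (SD, n = 4), where CPM are counts of a gene per 1000000 counts of its library. The 2 mut clones differed, with solvent means of 73.3 CPM for clone 1 and 150 CPM for clone 65. The WT clones 27 and 2 were at 91.8 and 103 CPM (n = 2 each).

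MAF proteins are basic leucine zipper factors related to JUN and FOS. The large members, such as MAF, MAFA and NRL, carry a transactivation domain and act in the differentiation of lens, lymphoid, islet and retinal cells, while the small members (MAFF, MAFG and MAFK) lack one and pair with the cap'n'collar factors of the NFE2 family, which activate antioxidant genes, or with BACH1 and BACH2, which repress them. The DNA element of MAF dimers extends the palindromes recognized by AP-1 and CREB factors with flanking TGC and GCA.

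On GRCh38 (GENCODE annotation), MAF (ENSG00000178573) lies on the minus strand of chr16:79585843-79600737, MAFF (ENSG00000185022) on the plus strand of chr22:38200767-38216507, MAFG (ENSG00000197063) on the minus strand of chr17:81918270-81927735 and MAFK (ENSG00000198517) on the plus strand of chr7:1530702-1543043, and all 4 are protein-coding. The strand setting of the counting is not given in the sources used here. The study names a TruSeq RNA kit for these libraries and a stranded TruSeq kit only for a separate time course. Of the 4 genes, 3 share exon bases with a neighbour: MAFF 326 with PLA2G6 and MAFK 809 with TMEM184A, both on the opposite strand, and MAFG 105 with SIRT7 on the same strand. Reads from those stretches may be split or lost. The neighbours were lower than the members they overlap, with 6.83 ± 1.33, 17.3 ± 2.71 and 27.2 ± 0.778 CPM for PLA2G6, TMEM184A and SIRT7 in WT solvent (SD, n = 4), and in WT cells after 24 h of TGFβ1 they were at 7.06 ± 0.501, 13.2 ± 0.178 and 24.5 ± 2.25 CPM.

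The 250 bases before the RefSeq start (GRCh38.p14) are shown for MAF and for the upstream of the 2 listed starts of MAFF, since these were the members with the earliest change after TGFβ1, and for MAFG as a member without a change at 6 h. Capitals mark exact matches, on either strand, to TGACGTCA (the full CRE palindrome of CREB, ATF and AP-1 dimers) and TGACNNNGC (the core of the antioxidant response element). TGACTCA (the AP-1 element) and TGCTGAC (the TGC arm of a MAF element with its core) were also searched, and the motifs can overlap each other.
MAF, chr16:79600738-79600987, minus strand: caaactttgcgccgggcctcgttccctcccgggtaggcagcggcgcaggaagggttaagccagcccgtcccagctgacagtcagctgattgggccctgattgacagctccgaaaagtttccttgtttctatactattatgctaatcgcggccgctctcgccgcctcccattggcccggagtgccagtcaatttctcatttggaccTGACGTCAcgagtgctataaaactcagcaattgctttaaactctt
MAFF, chr22:38201744-38201993, plus strand: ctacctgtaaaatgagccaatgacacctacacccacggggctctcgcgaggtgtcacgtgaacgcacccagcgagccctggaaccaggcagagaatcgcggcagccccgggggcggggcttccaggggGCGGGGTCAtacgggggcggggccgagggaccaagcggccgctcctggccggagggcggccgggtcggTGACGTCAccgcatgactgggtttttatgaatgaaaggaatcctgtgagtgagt
MAFG, chr17:81927736-81927985, minus strand: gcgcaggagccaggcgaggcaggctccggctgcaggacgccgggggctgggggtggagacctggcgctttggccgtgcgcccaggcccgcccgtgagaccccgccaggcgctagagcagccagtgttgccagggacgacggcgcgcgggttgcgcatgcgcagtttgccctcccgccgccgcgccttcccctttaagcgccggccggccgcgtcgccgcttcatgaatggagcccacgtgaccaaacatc

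The CRE stood 41 bases before the MAF start and 50 bases before the MAFF start, counted to the middle of the motif, and was found in 1.65% of 35116 RefSeq promoter windows of the same length. The antioxidant core of MAFF, 118 bases before the start and read on the other strand, was found in 10.9% of windows. The AP-1 element (4.2% of windows) and the arm of the MAF element (3.43%) were not found in these windows, and the window of MAFG and that of the downstream MAFF start held none of the 4 motifs. MAFK was not among the sequences used.

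Across the 8 groups MAFF was the most abundant member per length and MAF the least. In WT solvent, levels per kilobase of the canonical transcript were 21.7 ± 3.0 CPM per kb for MAFF, 10.0 ± 0.882 for MAFG, 6.85 ± 0.434 for MAFK and 0.229 ± 0.0796 for MAF (SD, n = 4). NRL was at 0.269 ± 0.0621 CPM per kb in WT solvent, and MAFA had between 0 and 12 counts per library over all libraries. MAFF made up 56.0% ± 4.84 of the summed level per length of the 3 small members in WT solvent and 64.1% ± 2.7 in mut solvent (SD, n = 4). These shares depend on the length used: with all annotated exons of each gene in place of the canonical transcript, MAFF made up 38.1% and MAFG 40.4% in WT solvent, and 46.5% and 33.0% in mut solvent.

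**Figure D1:**
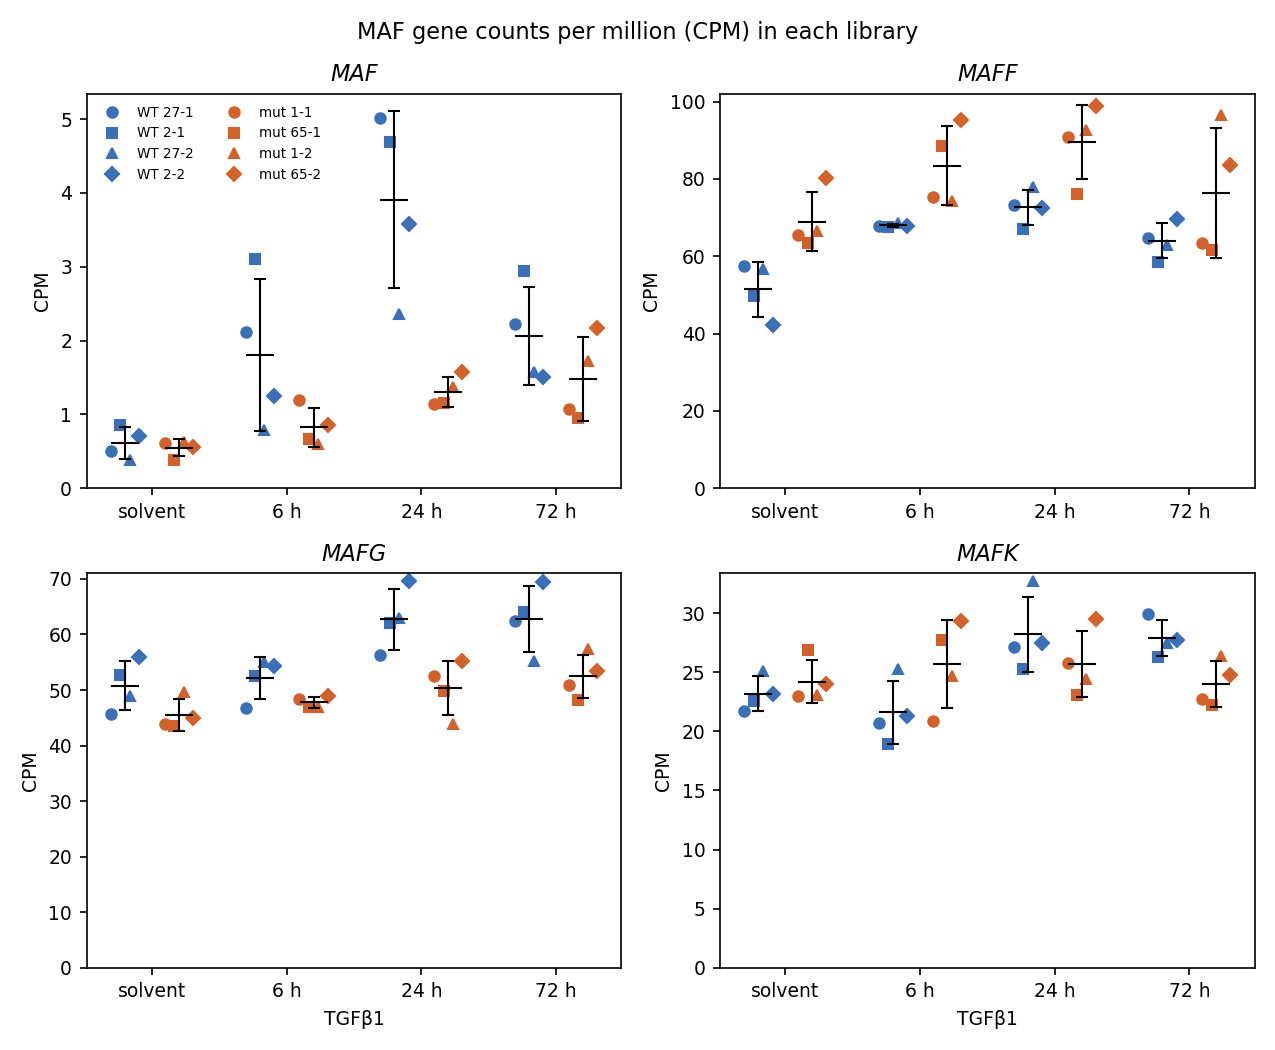
CPM (y axis from 0) of each member in every library, by TGFβ1 state (x axis), with WT in blue and mut in orange, 1 symbol per series, and the mean and SD of 4 libraries in black. WT libraries of MAF were at 0.376 to 0.856 CPM in solvent and at 2.36 to 5.01 CPM at 24 h, and mut libraries at 24 h between 1.14 and 1.57 CPM.

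TGFβ1 raised MAF in WT cells at every time, with the highest level at 24 h. In WT solvent MAF had 0.503, 0.856, 0.376 and 0.705 CPM in the series 27-1, 2-1, 27-2 and 2-2, which were 15 to 38 counts. After 6 h the same series had 2.11, 3.11, 0.783 and 1.25 CPM, after 24 h 5.01, 4.69, 2.36 and 3.58 CPM, and after 72 h 2.22, 2.94, 1.58 and 1.51 CPM. All 4 series rose at each time, and neither the 24 h nor the 72 h libraries overlapped solvent, whereas at 6 h the series 27-2 lay within the solvent range. Against its own solvent library, a series rose 5.08 to 9.96-fold at 24 h.

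The fitted log2 fold changes of MAF in WT cells were 1.38 ± 0.46 at 6 h, 2.67 ± 0.42 at 24 h and 1.74 ± 0.45 at 72 h (SE), with adjusted p-values of 0.0358, 5.08e-06 and 0.00179 (limma-voom, Benjamini-Hochberg over 14865 genes). Between 6 and 24 h MAF rose by a further 1.29 ± 0.30 (adjusted p = 0.00145), and between 24 and 72 h it fell by 0.94 on the log2 scale (SE 0.28, adjusted p = 0.0352). The 6 h call rested on single libraries: it was lost without WT solvent 27-1, 27-2 or 2-2 and without WT 6 h 27-1 or 2-1, where log2 fold changes were 1.09 to 1.46 and adjusted p-values 0.0654 to 0.107. The decline after 24 h was lost without any one of WT 24 h 27-1, 2-1 or 2-2 or WT 72 h 27-1, 27-2 or 2-2 (log2 fold change -0.99 to -0.77, adjusted p 0.0677 to 0.152). The calls at 24 and 72 h held in every such fit.

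In mut cells MAF started within the range of WT solvent and reached its highest single level at 72 h. The mut solvent libraries 1-1, 65-1, 1-2 and 65-2 had 0.614, 0.379, 0.629 and 0.563 CPM, and after 6 h they had 1.19, 0.669, 0.603 and 0.855 CPM. After 24 h they had 1.14, 1.16, 1.37 and 1.57 CPM and after 72 h 1.08, 0.949, 1.73 and 2.17 CPM. All mut libraries at 24 and 72 h lay above all mut solvent libraries, while the 6 h libraries overlapped them. The log2 fold changes were 0.57 ± 0.50 at 6 h (adjusted p = 0.547), 1.26 ± 0.47 at 24 h (adjusted p = 0.0509) and 1.38 ± 0.46 at 72 h (adjusted p = 0.0286, SE). The 24 h change, just above the threshold, passed it with the series as a replicate block (1.25, adjusted p = 0.0025), with the replications of a clone summed, which leaves 2 samples per group (1.27, adjusted p = 0.0263), with TMM factors (1.35, adjusted p = 0.042), with edgeR (1.34, adjusted p = 0.00892) and with DESeq2 (1.36, adjusted p = 0.00233). It did not pass without the low-count filter (1.26, adjusted p = 0.052) or without series 1-2 (1.31, adjusted p = 0.116). Of the 8 fits that each left out 1 library, 0 called it (1.1 to 1.33, adjusted p 0.0618 to 0.123). The 72 h call was lost without mut solvent 1-1, 65-1 or 65-2 or mut 72 h 1-2 or 65-2 (1.19 to 1.44, adjusted p 0.0537 to 0.0823).

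Mut and WT cells differed in MAF at 24 h. The highest mut library at 24 h (1.57 CPM) was below the lowest WT library (2.36 CPM), with a log2 fold change of mut against WT of -1.54 ± 0.32 (SE, adjusted p = 0.000453), or 0.345 times the WT level. In solvent the difference was -0.13 (95% interval -1.24 to 0.99, adjusted p = 0.917), at 6 h -0.94 (-1.77 to -0.10, adjusted p = 0.101) and at 72 h -0.48 (-1.17 to 0.20, adjusted p = 0.262). At 6 h the difference passed the threshold without the WT 6 h library 27-2 (-1.27, adjusted p = 0.0216). The interaction, which compares the response of mut cells with that of WT cells, was -1.41 ± 0.63 at 24 h and was not called (SE, adjusted p = 0.166), although the changes of single series did not overlap, at 2.35 to 3.32 in WT and 0.89 to 1.61 in mut on the log2 scale. With the series as a replicate block it was called, at -1.45 (adjusted p = 0.0137), but not with the replications of a clone summed (-1.47, adjusted p = 0.102).

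Markers of other cell types were checked beside these values, since in bulk RNA fewer cells of a type and less RNA per cell cannot be told apart. The 9 epithelial markers, of which KRT19 had at most 14 counts, summed to 7095 to 9480 CPM in WT solvent and 6114 to 10287 CPM in WT cells at 24 h, and to 10480 to 12591 and 11707 to 12983 CPM in mut cells. Mut libraries thus lay above WT libraries in both states, as they did at 6 h (12433 to 14842 against 8080 to 11246 CPM) and at 72 h (8960 to 11819 against 5798 to 8864 CPM). The single epithelial markers did not move together: 2 were called higher and 3 lower in WT cells at 24 h against solvent (52.1% of all genes called). In mut cells 1 was called higher and 3 lower (23.8%). EPCAM, an epithelial adhesion molecule, was at 46.5 ± 9.21 CPM in WT solvent and 15.9 ± 4.83 CPM at 24 h, and at 76.4 ± 4.34 and 39.0 ± 6.3 CPM in mut cells (SD, n = 4). KRT14, a basal keratin, was at 364 ± 127 and 1071 ± 330 CPM in WT cells, and at 480 ± 121 and 1352 ± 404 CPM in mut cells. PTPRC, CD3E and VWF, which define leukocytes and endothelium, had at most 2, 2 and 6 counts. The other 2 of the 4 immune genes were detected, and the list summed to 23 to 32 CPM in WT solvent and 18.5 to 26.8 CPM at 24 h, and to 29.5 to 34.0 and 18.3 to 20.9 CPM in mut cells. The monocyte receptor CD14 was at 14.8 ± 4.11 and 3.36 ± 1.47 CPM in WT cells and at 25.7 ± 2.58 and 10.3 ± 1.37 CPM in mut cells in solvent and at 24 h. CD68, a lysosomal protein, was at 12.3 ± 2.34 and 20.1 ± 5.24 CPM in WT cells and at 6.57 ± 0.646 and 9.29 ± 1.01 CPM in mut cells (SD, n = 4). The 5 measured fibroblast genes of 6 listed, which TGFβ1 can induce, summed to 15.2 to 22.1 CPM in WT solvent and 68.0 to 91.3 CPM in WT cells at 24 h, and to 15.2 to 25.0 and 33.8 to 47.9 CPM in mut cells. This sum moved with MAF, carried mainly by COL1A1, at 8.32 ± 1.99 and 61.4 ± 10.0 CPM in WT cells and 4.68 ± 1.03 and 16.7 ± 2.26 CPM in mut cells. DCN had a higher mean in mut than in WT cells in each state (23.5 ± 4.31 against 17.5 ± 6.2 CPM at 24 h, SD, n = 4), opposite to MAF, and COL1A2 stayed at or below 0.364 CPM. The part of these markers in the MAF result was not tested.

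**Figure D2:**
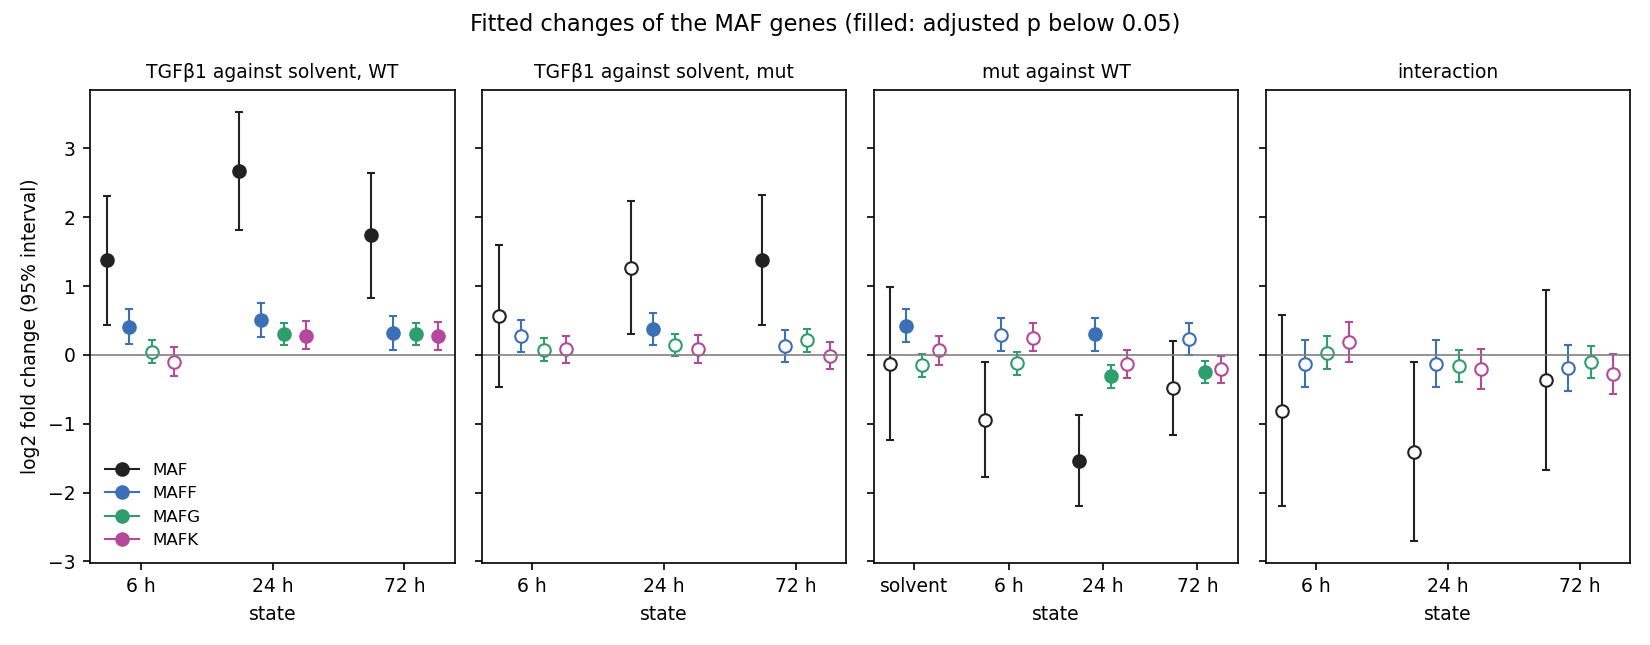
Fitted log2 fold changes (y axis, bars are 95% intervals) of the 4 members for TGFβ1 against solvent in WT and in mut, mut against WT, and the interaction, by state (x axis), with filled points for adjusted p below 0.05. MAF had the widest intervals, and no member was called in the interaction.

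MAFF, a small partner known to be induced by stress and growth signals, rose early in WT cells and was higher in mut cells before treatment. In WT solvent MAFF had 57.5, 49.6, 56.6 and 42.2 CPM in series 27-1, 2-1, 27-2 and 2-2. At 6 h all 4 WT libraries lay within 67.6 to 68.6 CPM, at 24 h within 67.0 to 77.9 CPM and at 72 h within 58.5 to 69.7 CPM. None of these ranges overlapped WT solvent. The log2 fold changes were 0.41 ± 0.12 at 6 h, 0.50 ± 0.12 at 24 h and 0.32 ± 0.12 at 72 h (SE, adjusted p = 0.0179, 0.000783 and 0.0277). WT solvent 2-2, the lowest library, carried part of this: without it the 6 h call (0.32, adjusted p = 0.0926) and the 72 h call (0.23, adjusted p = 0.13) were lost. The 72 h call was also lost without WT solvent 2-1 and without WT 72 h 27-1 or 2-2 (0.28 to 0.31, adjusted p 0.0508 to 0.0827).

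In mut solvent MAFF had 65.5, 63.5, 66.6 and 80.2 CPM in the series 1-1, 65-1, 1-2 and 65-2, all above the highest WT solvent library. The difference of mut against WT in solvent was 0.42 ± 0.12 on the log2 scale (SE, adjusted p = 0.0172), or 1.34-fold. It was lost without WT solvent 2-2 (0.34, adjusted p = 0.0759) or mut solvent 65-2 (0.35, adjusted p = 0.0895). TGFβ1 brought mut libraries to 74.4 to 95.2 CPM at 6 h, 76.2 to 98.9 CPM at 24 h and 61.5 to 96.6 CPM at 72 h. The response was called at 24 h (0.38 ± 0.11, adjusted p = 0.0172), a call lost without mut solvent 65-1 or mut 24 h 65-2 (0.34 and 0.33, adjusted p = 0.0512 and 0.0638). It was not called at 6 h (0.27 ± 0.11, adjusted p = 0.143), where it passed with the series as a replicate block (0.27, adjusted p = 0.0449) but not with the replications of a clone summed (0.27, adjusted p = 0.218), or at 72 h (0.13 ± 0.12, adjusted p = 0.454, SE).

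Under TGFβ1 the difference of MAFF between genotypes was 0.29 ± 0.12 at 6 h (adjusted p = 0.0726), 0.30 ± 0.11 at 24 h (adjusted p = 0.0421) and 0.23 ± 0.12 at 72 h (adjusted p = 0.114, SE). The 6 h groups did not overlap, whereas at 24 h mut 65-1 lay below WT 27-2. The 24 h call was lost with TMM scaling (0.21, adjusted p = 0.195) and without WT 24 h 27-1, 2-1 or 2-2 or mut 24 h 1-1, 1-2 or 65-2 (0.25 to 0.30, adjusted p 0.0659 to 0.126). At 72 h the difference passed without mut 72 h 1-1 or 65-1 (0.32 and 0.33, adjusted p = 0.0412 and 0.0323). The interaction of MAFF lay between -0.47 and 0.21 at 6 and 24 h and between -0.53 and 0.15 at 72 h (95% intervals).

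MAFG, a small partner expressed in most tissues, was called from 24 h on in WT cells and was lower in mut cells at 24 and 72 h. In WT cells it had 45.6, 52.7, 48.9 and 55.9 CPM in solvent and 46.7, 52.5, 55.0 and 54.4 CPM at 6 h in series 27-1, 2-1, 27-2 and 2-2. At 24 h it had 56.3, 62.0, 62.9 and 69.7 CPM and at 72 h 62.5, 64.1, 55.2 and 69.5 CPM. The 24 h libraries all lay above the solvent libraries, with 56.3 CPM in the lowest of them against 55.9 CPM in the highest solvent library, and at 72 h 27-2 fell within the solvent range. The log2 fold changes were 0.04 ± 0.08 at 6 h (adjusted p = 0.79), 0.30 ± 0.08 at 24 h (adjusted p = 0.00206) and 0.31 ± 0.08 at 72 h (adjusted p = 0.002, SE). From 6 to 24 h MAFG rose by 0.26 ± 0.08 (adjusted p = 0.0134), which was lost without WT 6 h 27-1 or WT 24 h 2-2 (0.21 in both, adjusted p = 0.0697 and 0.067). This rise was also not called with the replications of a clone summed (0.26, adjusted p = 0.0628).

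In mut cells MAFG had 43.6 to 49.7 CPM in solvent, 46.9 to 49.0 at 6 h, 43.9 to 55.2 at 24 h and 48.2 to 57.3 at 72 h, with overlap of each treated group with solvent. The changes were 0.07 ± 0.08, 0.14 ± 0.08 and 0.21 ± 0.08 on the log2 scale (SE, adjusted p = 0.65, 0.206 and 0.0604). The 72 h change passed with the series as a replicate block (0.21, adjusted p = 0.0189), with TMM factors (0.28, adjusted p = 0.0162), edgeR (0.28, adjusted p = 0.0157) and DESeq2 (0.29, adjusted p = 0.00904), but not with summed replications (0.21, adjusted p = 0.144). It also passed without mut solvent 1-2 or mut 72 h 65-1 (0.25 in both, adjusted p = 0.0387 and 0.0388). Mut against WT, MAFG differed by -0.15 ± 0.08 in solvent (adjusted p = 0.231) and -0.12 ± 0.08 at 6 h (adjusted p = 0.294). It was lower in mut at 24 h (-0.31 ± 0.08, adjusted p = 0.00284), where the groups did not overlap, and at 72 h (-0.25 ± 0.08, adjusted p = 0.0113), where they did. The 72 h call was lost without WT 72 h 2-2 (-0.20, adjusted p = 0.0584).

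MAFK, the third small partner, had the narrowest span of group means. It had 21.7, 22.6, 25.1 and 23.2 CPM in WT solvent, 20.7, 18.9, 25.3 and 21.3 CPM at 6 h, 27.1, 25.3, 32.7 and 27.5 CPM at 24 h, and 29.9, 26.3, 27.5 and 27.7 CPM at 72 h in series 27-1, 2-1, 27-2 and 2-2. All WT libraries at 24 and 72 h lay above all solvent libraries. The log2 fold changes were -0.10 ± 0.10 at 6 h (adjusted p = 0.575), 0.28 ± 0.10 at 24 h (adjusted p = 0.0191) and 0.27 ± 0.10 at 72 h (adjusted p = 0.025, SE). Between 6 and 24 h MAFK rose by 0.38 ± 0.10 (adjusted p = 0.00453). The 24 h call was lost without WT solvent 27-1 (0.25, adjusted p = 0.0624) or WT 24 h 27-2 (0.21, adjusted p = 0.0994), and the 72 h call without WT solvent 27-1 or 2-1 or WT 72 h 27-1 (0.23 to 0.26, adjusted p 0.0549 to 0.0771). Both calls were lost with the replications of a clone summed (0.28 and 0.27, adjusted p = 0.0533 and 0.0638). Without series 27-2 the 24 h call was lost as well (0.25, adjusted p = 0.0566).

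In mut cells MAFK had 23.0, 26.9, 23.1 and 24.0 CPM in solvent and lay between 20.9 and 29.5 CPM in the treated libraries, and no time was called against solvent (0.08, 0.08 and -0.01 on the log2 scale, each ± 0.10, SE, adjusted p = 0.678, 0.596 and 0.955). Between genotypes no MAFK difference was called, from 0.25 ± 0.10 at 6 h (adjusted p = 0.075) to -0.21 ± 0.10 at 72 h (SE, adjusted p = 0.0868). The 6 h difference passed without WT 6 h 27-2 or mut 6 h 1-1 (0.33 and 0.34, adjusted p = 0.0288 and 0.0133), and the 72 h difference passed with TMM scaling (-0.29, adjusted p = 0.03).

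Counted together and against solvent, 2 of the 4 members were called in WT cells at 6 h, where 17% of all tested genes were called, 4 of 4 at 24 h (52.1% of genes) and 4 of 4 at 72 h (52.2%), and every call was an increase. With the replications of a clone summed, MAFK was not called at 24 or 72 h. With library-size scaling, increases were the minority of all calls at 24 h, with 2098 genes higher (14.1% of genes tested) and 5654 lower. With TMM factors, which match the bulk of genes between libraries, the calls were near even, with 3499 higher (23.5%) and 3450 lower. In mut cells 0 of 4 were called at 6 h (7% of genes), 1 of 4 at 24 h (23.8%, MAFF) and 1 of 4 at 72 h (24.1%, MAF). In mut cells at 6 h MAFF alone had an unadjusted p under 0.05. There edgeR and DESeq2 called no member, beside 4.13% and 6.42% of all genes. For mut against WT, 1 of 4 was called in solvent (12.7% of genes), 0 at 6 h (21.4%), 3 at 24 h (36.9%, MAFF higher and MAF and MAFG lower) and 1 at 72 h (39.2%). At 6 h 3 of the 4 had an unadjusted p under 0.05, and the share of all genes at this unadjusted threshold was not counted. There edgeR and DESeq2 each called 1 member, MAF, beside 20.9% and 22.7% of all genes. The members' share was above that of all genes for the WT response at each time and for the genotype difference at 24 h, and within 1 gene of it in the other comparisons with solvent and between genotypes. With 4 genes, chosen with earlier results of these data known, no statement about the set as such was made.

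The interaction called 0 of 4 members at 6, 24 and 72 h, where 0.074%, 9.65% and 12.3% of genes were called, and 1 member, MAF at 24 h, had an unadjusted p under 0.05. DESeq2 called MAF in the 24 h interaction (-1.50, adjusted p = 0.0383) and no other member at any time, and edgeR called none. Of all genes DESeq2 called 8.52% and edgeR 6.27% in the 24 h interaction. From 6 to 24 h, 3 of 4 members rose in WT cells (28.2% of genes called) and 0 were called in mut cells (3.12%, and 0 at an unadjusted p under 0.05). From 24 to 72 h, 1 of 4 fell in WT cells (7.83%) and 0 were called in mut cells (1.31%), where MAFF had an unadjusted p under 0.05, and edgeR and DESeq2 called no member in either step of mut cells. The median log2 fold change of all tested genes in WT cells was -0.0785, -0.176 and -0.191 at 6, 24 and 72 h with library-size scaling and -0.00406, 0.00139 and -0.0286 with TMM factors, so the members' increases stood somewhat further from the median of all genes than from 0.

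Ordered by mean CPM, MAF ran from WT 24 h (3.91 ± 1.2) through WT 72 h (2.06 ± 0.666), WT 6 h (1.81 ± 1.03), mut 72 h (1.48 ± 0.571), mut 24 h (1.31 ± 0.203), mut 6 h (0.829 ± 0.264) and WT solvent (0.61 ± 0.213) to mut solvent (0.546 ± 0.115, SD, n = 4). MAFF ran from mut 24 h (89.6 ± 9.62) through mut 6 h (83.4 ± 10.2), mut 72 h (76.3 ± 16.8), WT 24 h (72.6 ± 4.47), mut solvent (68.9 ± 7.65), WT 6 h (68.0 ± 0.427) and WT 72 h (64.0 ± 4.59) to WT solvent (51.5 ± 7.11). Of all neighbours in the 4 orders, only WT 72 h and WT solvent of MAFF had library ranges that did not overlap. From the highest to the lowest group mean, levels spanned 7.16-fold for MAF, 1.74-fold for MAFF, 1.38-fold for MAFG and 1.31-fold for MAFK. MAFG was highest in WT 72 h (62.8 ± 5.88) and WT 24 h (62.7 ± 5.5) and lowest in mut solvent (45.5 ± 2.83), while MAFK was highest in WT 24 h (28.2 ± 3.19) and lowest in WT 6 h (21.6 ± 2.7).

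**Figure D3:**
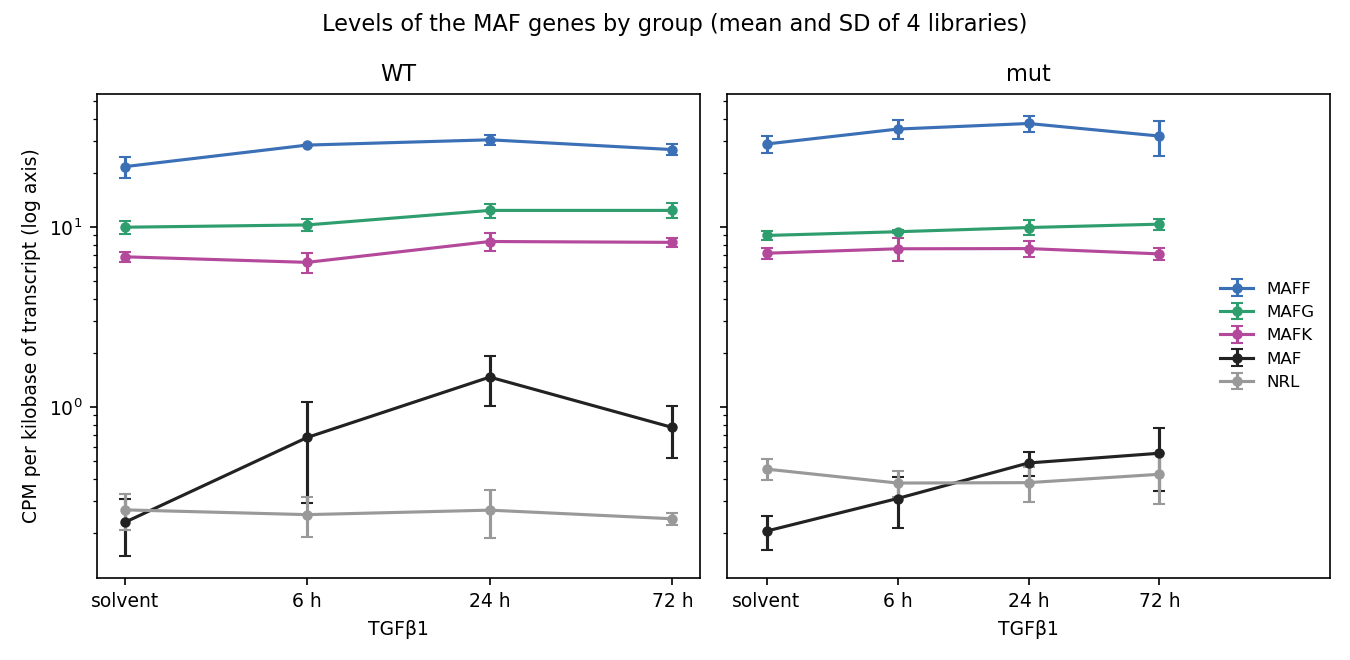
Mean level of the 4 members and NRL per kilobase of canonical transcript (CPM per kb, log axis) by TGFβ1 state (x axis) in WT and mut cells, with SD of 4 libraries. MAFF stood highest in each of the 8 groups.

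NRL, the retinal member, was between 0.635 and 2.1 CPM, did not pass the test at any time against solvent, and was higher in mut than in WT in solvent (0.78 ± 0.24, adjusted p = 0.0325) and at 72 h (0.76 ± 0.25, SE, adjusted p = 0.0152). These NRL calls were lost without 1 of 5 solvent libraries (WT 27-1, 2-1 or 2-2 or mut 1-2 or 65-2, 0.66 to 0.80) and without mut 72 h 65-2 (0.60, adjusted p = 0.062).

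The partners of the small MAF proteins had no direction under TGFβ1 in WT cells that held under both scalings. Of 7 genes tested (NFE2, NFE2L1, NFE2L2, NFE2L3, BACH1, BACH2 and the NFE2L2 inhibitor KEAP1), 0 were called in WT cells at 6 h (17% of all genes called), and 0 rose and 2 fell at 24 and at 72 h with library-size scaling (52.1% and 52.2%), whereas with TMM factors 3 rose and 0 fell at both times (46.7% and 44.7%). The 2 were NFE2L2, which encodes the stress activator NRF2 (-0.24 ± 0.09 and -0.33 ± 0.09, SE, adjusted p = 0.023 and 0.00196, with TMM factors -0.06 and -0.17, adjusted p = 0.594 and 0.096), and KEAP1 (-0.24 ± 0.07 at both times, SE, adjusted p = 0.00299 and 0.00282, with TMM factors -0.06 and -0.08, adjusted p = 0.475 and 0.345). The 24 h call of NFE2L2 was also lost without WT solvent 2-2 or WT 24 h 2-1, 27-2 or 2-2 (-0.23 to -0.22). In mut cells NFE2L2 fell by 0.44 on the log2 scale at 72 h (adjusted p = 0.000327) and by 0.37 with TMM factors (adjusted p = 0.00174). NFE2L1, a relative of NRF2 that acts on proteasome genes, rose in mut cells at 6 h (0.29 ± 0.07, adjusted p = 0.0178) and at 24 h (0.21 ± 0.07, SE, adjusted p = 0.0358), and with TMM factors by 0.34 and 0.30 (adjusted p = 0.00627 and 0.00518). With library-size scaling these 2 calls were lost without mut solvent 1-1 or mut 6 h 65-1 or 65-2 (0.27 to 0.30, adjusted p up to 0.0786), and without 6 of the 8 libraries at 24 h (0.17 to 0.22, adjusted p up to 0.128).

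In all, 1 partner rose and 0 fell in mut cells at 6 h, 1 rose and 1 fell at 24 h (1 and 0 with TMM factors), and 0 rose and 1 fell at 72 h. Of all genes 7%, 23.8% and 24.1% were called at these times. Between genotypes 1 partner was higher in mut and 0 lower in solvent, 3 and 0 at 6 h, 1 and 1 at 24 h, and 1 and 2 at 72 h. Of all genes 12.7%, 21.4%, 36.9% and 39.2% were called in these states. NFE2L2 was the partner called between genotypes in all 4 states, with 177 to 185 CPM in WT solvent and 191 to 273 CPM in mut solvent (0.38 ± 0.09, SE, adjusted p = 0.00318). It was higher in mut by 0.36, 0.32 and 0.27 at 6, 24 and 72 h (adjusted p = 0.00356, 0.00501 and 0.0136). The 72 h call was lost with TMM factors (0.19, adjusted p = 0.0757) and without WT 72 h 2-2 or mut 72 h 1-2 (0.19 to 0.21, adjusted p up to 0.0811). NFE2L2 shares 3509 exon bases with HNRNPA3 on the opposite strand, so its reads cannot be assigned beyond doubt. The same limit applies to other genes named below. Among them, NFE2L3 shares 1207 exon bases with HNRNPA2B1, FTH1 1267 with BEST1 and ITGB7 1881 with ZNF740, each on the opposite strand.

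Of the other partners, BACH2, a repressor at low level with 2.97 ± 0.317 CPM in WT and 6.01 ± 1.63 CPM in mut at 6 h (SD, n = 4), was higher in mut at 6 h (0.99 ± 0.23, SE, adjusted p = 0.00238), as was NFE2L1 (0.29 ± 0.07, SE, adjusted p = 0.00506). BACH1, the repressor of HMOX1, was lower in mut at 72 h (-0.24 ± 0.09, SE, adjusted p = 0.0391), and NFE2L3 at 24 and 72 h (-0.44 ± 0.17 and -0.43 ± 0.16, SE, adjusted p = 0.0372 and 0.0329). These 3 calls were lost without any one of 6, 5 and 7 of the 8 libraries compared (adjusted p up to 0.142, 0.145 and 0.141). NFE2, the erythroid partner, was at 0.467 to 1.15 CPM in the group means and was called in none of these comparisons.

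Of 15 antioxidant genes with elements for NRF2 and small MAF dimers, 1 rose and 3 fell in WT cells at 6 h (17% of all genes called), 1 rose and 7 fell at 24 h (52.1%), and 1 rose and 8 fell at 72 h (52.2%). With TMM factors 1 rose and 3 fell, 4 rose and 3 fell, and 1 rose and 7 fell at the same times, so the excess of decreases did not hold at 24 h. Their median log2 fold change was -0.17, -0.30 and -0.41 at the 3 times, beside -0.0785, -0.176 and -0.191 for all genes, and -0.10, -0.13 and -0.24 with TMM factors. In mut cells 0 were called at 6 h (7% of all genes), 2 fell at 24 h (23.8%), and 1 rose and 3 fell at 72 h (24.1%, and 2 and 2 with TMM factors). Against WT, mut cells had 3 genes higher and 0 lower in solvent. At 6 h 7 were higher and 2 lower (6 and 2 with TMM factors), after 24 h 7 were higher against 1 lower (5 and 2), and by 72 h the split was 12 to 1 (9 to 1). The medians in the 4 states were 0.22, 0.48, 0.24 and 0.42 beside -0.0075, 0.0164, 0.0927 and 0.0952 for all genes. With TMM factors they were 0.22, 0.46, 0.16 and 0.34 beside -0.00285, 0.00198, 0.00579 and 0.0147. Of all genes 12.7% were called in solvent, and 21.4%, 36.9% and 39.2% at 6, 24 and 72 h. The genes with the largest calls in WT cells at 72 h were HMOX1, the heme-degrading enzyme repressed by BACH1 and MAF dimers (2.70 ± 0.38, adjusted p = 1.12e-06), AKR1B10, an aldo-keto reductase (-2.65 ± 0.55, adjusted p = 0.000186), and FTH1, the ferritin heavy chain (-1.02 ± 0.15, SE, adjusted p = 1.91e-06). Those with the largest calls of mut against WT in solvent were AKR1B10 (1.92 ± 0.27, adjusted p = 1.39e-05), AKR1C1, which reduces steroids and aldehydes (1.02 ± 0.28, adjusted p = 0.0138), and FTH1 (0.50 ± 0.15, SE, adjusted p = 0.0276). The AKR1C1 call was lost without WT solvent 27-1 (0.75, adjusted p = 0.0881) and the FTH1 call without WT solvent 27-1 or 27-2 or mut solvent 1-1 or 65-1 (0.34 to 0.49, adjusted p up to 0.157).

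HMOX1 was called higher in WT cells at each time, where most called genes of the list were lower with library-size scaling. It was at 1.26 to 2.97 CPM in WT solvent, 7.33 to 10.3 at 6 h, 12.0 to 25.0 at 24 h and 8.77 to 16.2 at 72 h, while mut libraries were at 1.77 to 3.19, 2.65 to 4.08, 4.23 to 5.5 and 2.69 to 7.71 CPM. Each treated WT group lay above WT solvent, and each treated WT group above the mut group of the same time. The response was weaker in mut at 24 h (interaction -2.44 ± 0.52, adjusted p = 0.00448) and at 72 h (-2.07 ± 0.54, SE, adjusted p = 0.0115). Both calls were lost when the replications of a clone were summed (-2.47 and -2.0, adjusted p = 0.053 and 0.0837), and the 72 h call without the mut series 1-2 (-1.85, adjusted p = 0.0527).

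**Figure D4:**
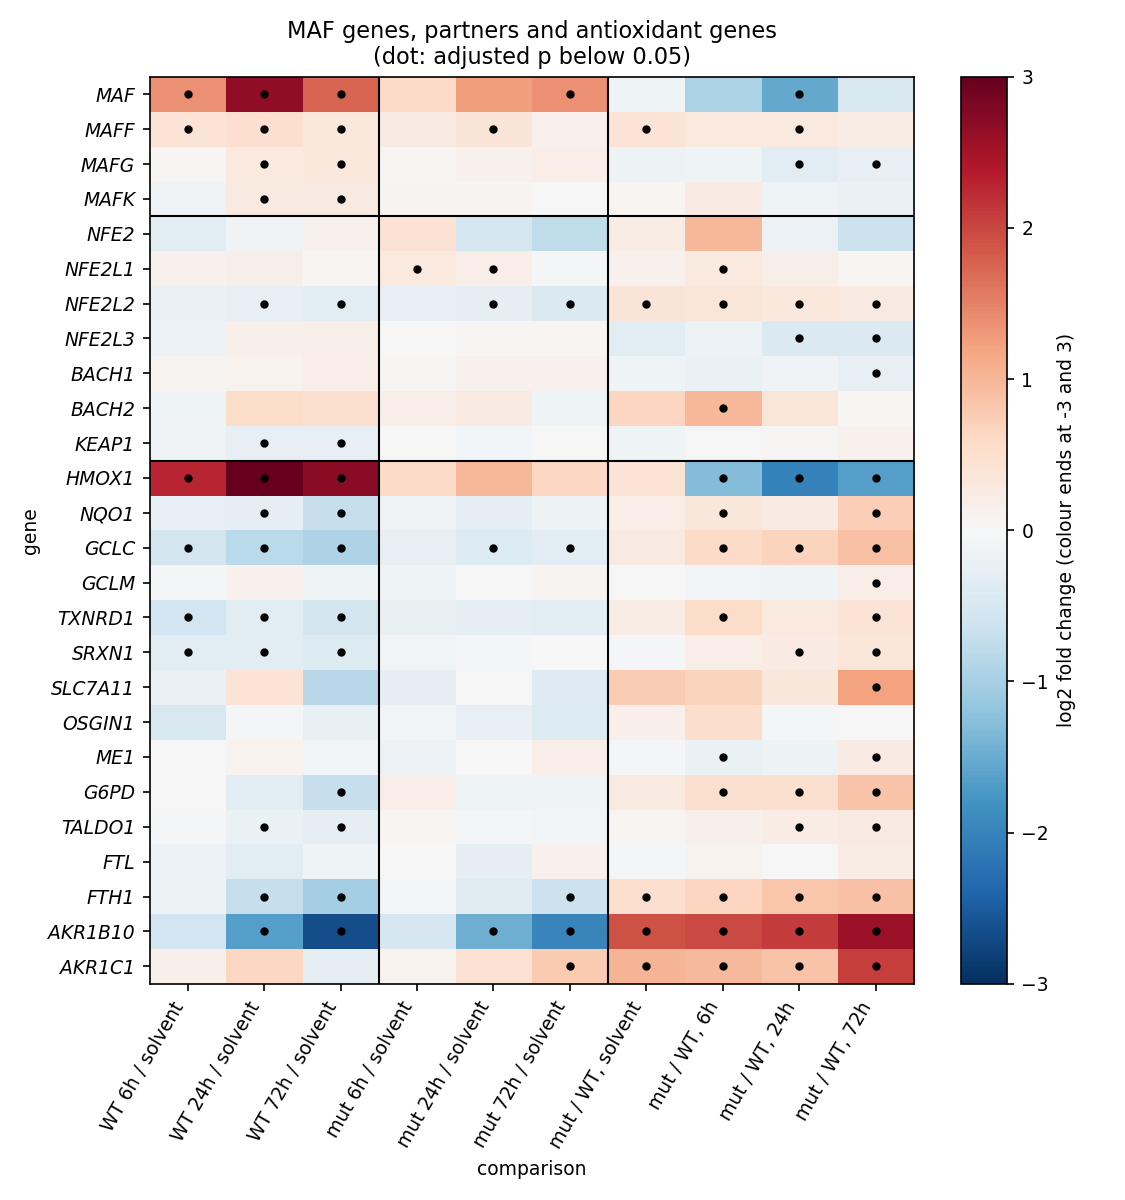
Log2 fold changes (colour, ending at -3 and 3) of the members, their partners and the antioxidant genes (rows, separated by lines) for TGFβ1 against solvent in WT and mut and for mut against WT (columns), with a dot at adjusted p below 0.05. HMOX1 shares the signs of MAF in the WT columns and in mut against WT at 6, 24 and 72 h, while NFE2L2 is higher in mut in all 4 states.

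The genes known as targets of MAF in lymphoid and myeloma cells were not called higher. CCND2, a D-type cyclin, was called lower in WT cells at 6, 24 and 72 h (-0.61 ± 0.20, -0.52 ± 0.20 and -0.56 ± 0.20, SE, adjusted p = 0.0367, 0.0323 and 0.0227), which are calls that TMM factors did not give (-0.54, -0.34 and -0.40, adjusted p = 0.0845, 0.172 and 0.118) and that at least 4 of 8 single libraries decided at each time (adjusted p up to 0.104). It was not called in mut cells (-0.46, -0.41 and -0.27, adjusted p = 0.175, 0.154 and 0.369). ITGB7, an integrin subunit that myeloma cells use for adhesion, was at 0.611 ± 0.189 CPM in WT solvent and 0.51 ± 0.213 CPM at 24 h (SD, n = 4) and was called in no comparison with solvent. CCR1, a chemokine receptor, had at most 4 counts in a library. Of the 7 JUN and FOS genes, the closest bZIP relatives, 2 were called higher in WT cells at 6 and 24 h and 3 at 72 h, with 0, 1 and 1 lower. Of all genes 17%, 52.1% and 52.2% were called at these times. Against WT 3 were higher in mut in solvent and at 6 and 24 h and 1 at 72 h, with 0 lower, beside 12.7%, 21.4%, 36.9% and 39.2% of all genes called.

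By Pearson's r of log2 CPM over the 32 libraries, the genes most like MAF were ADGRF4 (0.885), PRICKLE2 (0.874) and GALNT6 (0.872), and those most like MAFF were SUN2 (0.871), SGPL1 (0.861) and CALHM2 (0.857). TMEM44 (0.912), ZBTB4 (0.901) and RAB11FIP5 (0.895) were most like MAFG, and CTIF (0.789), TMED9 (0.761) and PLEKHO2 (0.758) most like MAFK. Among the members themselves r was 0.674 for MAF with MAFG, 0.466 for MAFG with MAFK, 0.37 for MAFF with MAFK, and between -0.0776 and 0.189 for the other pairs. These values describe 32 libraries that share clones, treatment and sequencing depth, so they hold group differences as well as differences between libraries of a group.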

How the data were processed

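Total RNA of MCF10A clones was sequenced as 32 paired-end libraries. Per the labels and the methods of the study, the authors trimmed reads, aligned them to GRCh38 with STAR and deposited raw read counts per gene, nothing pooled; versions and the annotation release are not given in the sources used here. Library totals were 39702412 to 54651906 counts. Symbols came from GENCODE 44 (17763 of 17788 identifiers matched). Genes under a minimum count of 10 (filterByExpr) were removed, leaving 14865, and counts scaled by library size were fitted with limma-voom (limma 3.58.1, R 4.3.3) over all 32 libraries in 8 groups, with Benjamini-Hochberg adjustment over all genes tested and calls at adjusted p below 0.05, two-sided. Named genes were the members, every gene of the other MAF, partner and MAF target lists except 1 that is not reported here, and the 3 antioxidant genes with the largest called change in WT at 72 h and in mut solvent. Likeness used log2 of CPM plus 0.5. edgeR 4.0.16 and DESeq2 1.42.0 served as alternatives. The limma-voom, edgeR and DESeq2 fits were tested on simulated counts, for WT 72 h against solvent only. The members and lists were chosen with earlier results of these data known.

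Libraries of 1 series come from the same clone and replication by their labels. Their deviations from the group means had a mean correlation of 0.431 (46 of 48 pairs above 0.1). Between replications of a clone it was 0.00716 (22 of 48 pairs above 0.1). Between different clones it was -0.0859 at the same replication number and -0.33 at different ones. Deviations cancel within a group, so a positive value within series lowers the other values, and 0 does not mark unrelated libraries. By these mean correlations replications of a clone were closer to each other than libraries of different clones. Direct comparison of counts within a group did not show this throughout. In WT cells at 24 h the chi-square per degree of freedom was 80.5 between 27-1 and 27-2 and 35.5 between 27-1 and 2-1. In WT cells at 6 h it was 12 between 2-1 and 2-2 and 37.1 between 27-1 and 2-1. No 2 libraries of a group agreed within sampling noise. The study describes its replicates as independent and biological without saying whether these are clones or replications of a clone, and p-values measure the spread between these libraries, and intervals cover this spread only.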

Additional observations from a re-analysis of the deposited data

Results flagged for a closer look

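In 4 of the 144 groups of 4 libraries examined (18 genes in 8 groups), 1 library stood far from the other 3, and chance gives about 1 in 20. None of the 4 groups concerned the 4 members. NFE2L2 was at 169 CPM in WT 24 h 27-1 and at 148 to 150 CPM in the others of that group. ITGB7 was at 0.267 CPM in mut 6 h 65-1, against 0.531 to 0.607 CPM. HMOX1 was at 7.71 CPM in mut 72 h 65-2, against 2.69 to 3.14 CPM. FTH1 was at 1099 CPM in WT 72 h 27-1, against 842 to 860 CPM.

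The response of HMOX1 to TGFβ1 differed between genotypes by the interaction term of limma-voom, with -2.44 at 24 h (adjusted p = 0.00448) and -2.07 at 72 h (adjusted p = 0.0115), lower in mut.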

How the results depend on the processing

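No direction of a called member turned under any alternative: of 1372 refitted log2 fold changes of members, 1281 stayed on their side of the threshold, 53 lost the call and 38 gained it. In WT cells the count of members called at 6 h was 1 when only the compared groups were fitted and without series 1-2, and 0 to 2 when single libraries were left out. At 24 h single libraries gave 3 to 4 and at 72 h 2 to 4. MAFK was not called at either of these times with summed replications, nor at 24 h without series 27-2. In mut cells at 6 h the count was 1 with the series as a replicate block (0 to 0 without single libraries). At 24 h it was 3 with DESeq2, and 2 with TMM factors, edgeR, a mean count of at least 50, the compared groups alone, summed replications, without series 27-2, without series 1-2 and with the series or the replication number as replicate block (0 to 1 without single libraries). At 72 h it was 2 with TMM factors, edgeR, DESeq2 and either replicate block, 0 without series 1-2, and 0 to 2 without single libraries. For mut against WT in solvent single libraries gave 0 to 1. At 6 h the count was 1 with edgeR, DESeq2, the compared groups alone, summed replications and without series 1-2, 2 without series 27-2 and with the replication number as replicate block, and 0 to 2 without single libraries. At 24 h single libraries gave 2 to 3. At 72 h it was 2 with TMM factors, edgeR and DESeq2, and 0 to 2 without single libraries. The 24 h interaction gave 1 with DESeq2 and 1 with the series block (0 to 0 without single libraries). From 24 to 72 h in WT cells the count was 0 with edgeR, the compared groups alone and without series 1-2, and 0 to 1 without single libraries. The replicate block changed no other count by over 1.5 times. The JUNB comparison was not called under any alternative. TMM-scaled levels differed from plain CPM by over 1 SD in 2 of 32 group means, plain or all-exon lengths moved 44 of 48 small MAF shares, and r over the 8 group means differed by over 0.1 in 2 of 12 likenesses. Depth limits MAF, with 15 to 274 counts per library.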
